A study of Mus musculus with 2 samples.

Results

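The cells described here are tumour-infiltrating cells with CD3 RNA that also carried RNA of Trdc or Cd163l1. Trdc encodes the constant region of the T-cell receptor delta chain, and Cd163l1 a scavenger receptor known from IL-17-producing gamma-delta T cells. Some of the cells also held RNA of natural killer cell markers. Whether each cell is a T cell, a natural killer cell or a doublet is not settled here. A cell was taken when it held at least 2 UMIs (distinct RNA molecules) of the CD3 genes Cd3e, Cd3d and Cd3g together, at least 1 UMI of Trdc and Cd163l1 together, and none of Cd4, Cd8b1, Foxp3 or Epcam. The first filter kept barcodes with 500 or more UMIs and 200 or more genes of which no more than 20% of UMIs were mitochondrial. This gate held 121 cells of the control library and 75 of the knockout library, 196 of the 14709 cells that passed the first filter. Of these, 69 control cells and 5 knockout cells held at least 1 UMI of Il17a and are called Il17a-positive. The other 52 control cells and 70 knockout cells are called Il17a-negative, and the 2 sets are described apart throughout.

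The cells came from mammary tumours of female BALB/c mice injected in the fat pad with 4T1 cells, a mouse mammary carcinoma line that stands in for triple-negative disease. One library was made from tumours whose 4T1 cells carried a control guide RNA (control), the other from tumours whose 4T1 cells had been given a guide against Kindlin-2 (K2-KO, here the knockout library). Fermt2 encodes Kindlin-2, a cytoplasmic protein that binds the tails of integrins. The edited cells were the injected tumour cells, and the T cells belong to hosts of the same strain in both groups. Tumours were taken at 150 mm3, dissociated with collagenase over 45 min and sorted for live cells with or without mCherry. The labels state neither which sorted fraction was loaded nor the number of tumours in a library. With 1 library per group no difference could be tested, and every interval below is a 95% interval that covers counting error only. Intervals are exact Poisson for levels, exact Clopper-Pearson for shares and exact conditional binomial for ratios. Levels are in CPM, the UMIs of a gene per 1000000 UMIs, summed over a set of cells.

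Gamma-delta T cells carry a receptor built from a gamma and a delta chain in place of the alpha and beta chains of CD4 and CD8 T cells. One branch leaves the thymus already set to make interleukin 17A, carries receptors for IL-23 and IL-1, and settles in skin, mucosa and tumours. Another branch makes interferon gamma and shares cytotoxic genes and receptors with natural killer (NK) cells. In mouse mammary tumour models, IL-17 from gamma-delta T cells is known for drawing in neutrophils.

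Promoters of 2 genes on which the results turn are shown, the cytokine Il17a and the receptor subunit Il23r, because the half-site AGGTCA bound by nuclear receptors occurs in the 250 bases before each start site. Sequences are from RefSeq on GRCm38.p6, written 5′ to 3′ on the strand of the gene, with AGGTCA or its reverse complement TGACCT in capitals. The Il17a window lies at chr1:20730655-20730904 on the plus strand, and the Il23r window at chr6:67491856-67492105 on the minus strand.
Il17a: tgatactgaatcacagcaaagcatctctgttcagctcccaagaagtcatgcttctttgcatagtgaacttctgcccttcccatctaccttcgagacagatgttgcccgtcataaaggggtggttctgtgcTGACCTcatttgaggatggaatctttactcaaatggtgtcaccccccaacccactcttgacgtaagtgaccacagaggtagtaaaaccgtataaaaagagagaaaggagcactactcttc
Il23r: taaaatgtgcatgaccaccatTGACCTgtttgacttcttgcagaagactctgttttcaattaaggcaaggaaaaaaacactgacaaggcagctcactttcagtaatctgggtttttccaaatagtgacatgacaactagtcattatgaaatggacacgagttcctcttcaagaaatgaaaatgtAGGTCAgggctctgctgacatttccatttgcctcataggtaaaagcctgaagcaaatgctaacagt

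The Il17a window holds TGACCT starting 120 bases before the start site, and the Il23r window holds AGGTCA at 66 bases and TGACCT at 229 bases before it. On either strand, AGGTCA was found in 4607 of 32851 RefSeq promoters of this length (14.0%) and in 8 of 37 promoters of the type 17 gene list used below (21.6%), of whose 32 genes 26 were matched. The promoter of Cd163l1 has no match in this window. These are descriptions of letters, and no binding was measured.

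The files give 8038 control and 7250 knockout barcodes, of which 7747 and 6962 passed the first filter. The knockout label was checked in the tumour cells, where the level of Fermt2 was 40.8 CPM in the control library and 17.8 CPM in the knockout library, in cells with an Epcam UMI and no CD3 UMI. Median depth in the gate was 5466 UMIs per cell (control) and 8167 (knockout). In both libraries 13 barcode sequences occurred, none of them in the gate. Doublets were called by Scrublet in 1 of 121 and 2 of 75 gated cells and were kept. The gene lists below were drawn up with earlier results of these data known.

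The values that chose the cells are a description only. In the control library a gated cell held between 2 and 37 CD3 UMIs (median 11), between 0 and 40 Trdc UMIs (median 9) and between 0 and 31 Cd163l1 UMIs (median 7). In the knockout library the ranges were 2 to 43 for CD3 (median 10), 0 to 38 for Trdc (median 6) and 0 to 31 for Cd163l1 (median 0). Just inside the gate, 3 control and 14 knockout cells had exactly 1 UMI of Trdc and Cd163l1 together, and 6 and 13 cells had exactly 2 CD3 UMIs. Just outside, 6 control and 13 knockout cells met every other term but had 1 CD3 UMI, and 98 and 209 CD3-gated cells had neither Trdc nor Cd163l1 and none of Cd4, Cd8b1 and Foxp3.

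**Figure D1:**
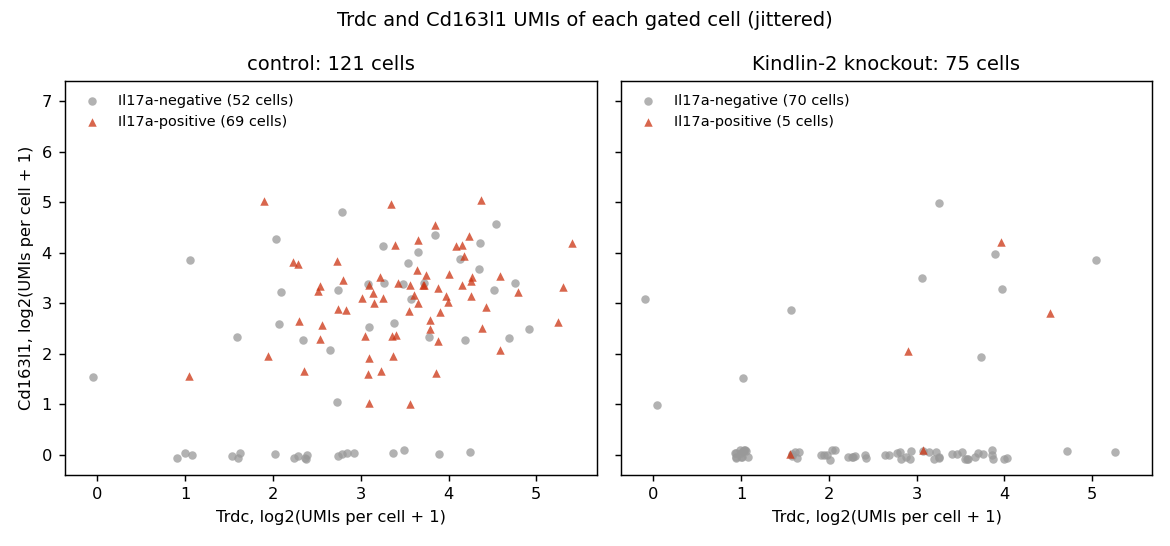
UMIs of Trdc (x axis) and Cd163l1 (y axis) in each gated cell, both as log2(UMIs + 1) and jittered, with 121 control cells on the left and 75 knockout cells on the right; triangles are Il17a-positive cells. Most control cells lie high on both axes (100 hold both RNAs), and most knockout cells lie on the floor of the y axis (62 hold Trdc only).

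The gated cells made up 21.3% of the CD3-gated cells (2 or more CD3 UMIs and no Epcam UMI) of the control library (121 of 567, interval 18.04 to 24.9%) and 8.21% of those of the knockout library (75 of 913, interval 6.52 to 10.2%). As shares of all filtered cells the values were 1.56% and 1.08%. The larger gap on the first scale goes with more CD3-gated cells in the knockout library. How tumours were pooled and which fraction was loaded could move each of these shares and cannot be told apart from the genotype here.

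The cells within the gate were split by Cd163l1, which the rule used, so these counts are a description. Cd163l1 RNA was present in 101 of 121 control cells (83.5%, interval 75.6 to 89.6%) and in 13 of 75 knockout cells (17.3%, interval 9.57 to 27.8%). Cells with Trdc only numbered 20 in the control library and 62 in the knockout library. Il17a-positive cells were 57.0% of the gated control cells (interval 47.7 to 66.0%) and 6.67% of the gated knockout cells (interval 2.20 to 14.9%). With each cell thinned to 1000 UMIs, Il17a was found in 40.0% and 3.8% of cells, so the deeper knockout cells had the lower share at matched depth as well. For background, Il17a was seen in 0.133% and 0.117% of the Epcam-positive cells without CD3 (median depths 36610 and 39426 UMIs). It was seen in none of 97 and 336 CD3-negative cells with an Ncr1 UMI (6477 and 6542 UMIs), which allows shares of up to 3.73% and 1.09%. In Cd8b1-positive T cells (9359 and 8736 UMIs) it was seen in 0.529% and 1.03%. Its level there was 0.428 and 29.3 CPM, against 1140 and 53.5 CPM in the gate.

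**Figure D2:**
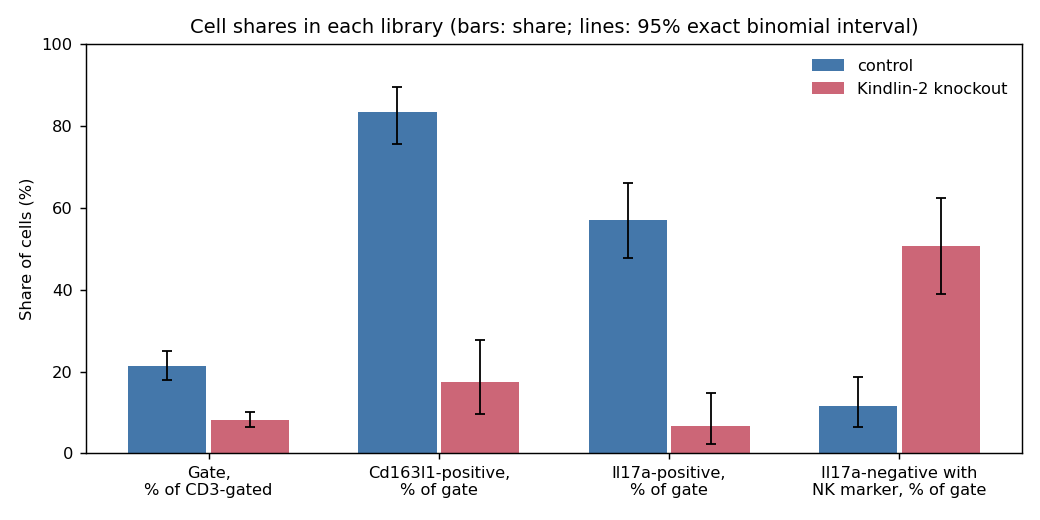
Shares of cells in percent (y axis) for the gate among CD3-gated cells and, within the gate, for Cd163l1-positive cells, Il17a-positive cells and Il17a-negative cells with an NK marker UMI; bars are shares in the control and knockout libraries and lines the 95% exact binomial intervals. The gate, Cd163l1-positive and Il17a-positive bars are higher in the control library (21.3, 83.5 and 57.0%), and the NK marker bar is higher in the knockout library (50.7%).

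Of 981 Il17a UMIs in the filtered control cells, 856 (87.3%) lay in the 69 Il17a-positive gated cells. A further 32 control cells outside the gate held 125, and 21 of those cells had an Epcam UMI, which the gate bars, with 113 Il17a UMIs among them. Of these, 15 cells also held CD3 and Trdc or Cd163l1 RNA. In the knockout library 119 Il17a UMIs lay in 16 cells, and the 5 gated cells held 43 of them (36.1%). Outside the gate, 3 knockout cells with CD3 and Cd8b1 RNA held 65 Il17a UMIs, 51 of them in 1 cell. Il17a was thus concentrated in the gate in the control library and spread over few cells of several kinds in the knockout library. Cells with Il17a were 1.30% of all filtered control cells (interval 1.06 to 1.58%) and 0.230% of all filtered knockout cells (interval 0.131 to 0.373%).

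The 5 Il17a-positive knockout cells held 16, 13, 9, 3 and 2 Il17a UMIs. In the same order they held 14, 7, 23, 6 and 2 UMIs of Trdc, 17, 0, 6, 3 and 0 of Cd163l1, 4, 2, 8, 4 and 2 of Il23r, and 5, 2, 7, 2 and 1 of Tcrg-C1. Each of the 5 thus carried RNA of a delta and a gamma constant region and of the IL-23 receptor, although 2 of them lacked Cd163l1 and 3 lacked Trdv4, a delta variable segment. They also held alpha-beta receptor RNA, with 7, 19, 0, 8 and 0 UMIs of Trbc1, 2, 4, 2, 4 and 2 of Trbc2, and 0, 2, 1, 0 and 0 of Trac. Among the 69 control cells Il17a ranged from 1 to 88 UMIs with a median of 8, and 10 cells had a single UMI. Within Il17a-positive cells the Il17a level was 1982 CPM in the control library (interval 1852 to 2119) and 1088 CPM in the knockout library (interval 788 to 1466), a log2 ratio of -0.87 (interval -1.34 to -0.42). That set was chosen by Il17a, so its level is a description.

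The receptor genes that the rule did not use divided the gate along the same line. Tcrg-C1, a gamma-chain constant region, was found in 77.7% of gated control cells and 33.3% of gated knockout cells, at 407 CPM (interval 363 to 456) and 119 CPM (interval 96.7 to 146). In Cd163l1-positive cells the Tcrg-C1 level was 508 CPM (control) and 631 CPM (knockout), and in cells with Trdc only it was 43.2 and 50.8 CPM. Trdv4, a delta variable segment known from innate-like IL-17-producing cells of tissues, was at 321 CPM in the control gate and 33.6 CPM in the knockout gate. It was at 406 and 252 CPM in Cd163l1-positive cells and at 12.4 and 4.23 CPM in cells with Trdc only. Tcrg-V6, a gamma variable segment known to pair with Trdv4, was found in 22 control and 5 knockout cells, every one of them Cd163l1-positive. Tcrg-V1, another gamma variable segment, had UMIs in 8 of 20 control cells and 9 of 62 knockout cells with Trdc only, and in 4 of 101 and 0 of 13 Cd163l1-positive cells.

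Cells with Trdc only lay between the Cd163l1-positive cells and other lymphocytes in Tcrg-C1. It was found in 25% of them in the control library and in 25.8% in the knockout library, against 2.06% and 2.38% of CD3-negative cells with an Ncr1 UMI (5.48 and 3.70 CPM) and 2.12% and 1.55% of Cd8b1-positive T cells (2.14 and 4.12 CPM). Tcrg-C4, another gamma constant region, was at 98.8 and 111 CPM in cells with Trdc only, at 78.1 and 126 CPM in Cd163l1-positive cells and at 53.4 and 30.3 CPM in the CD3-negative Ncr1-positive cells. Trdc RNA itself was found in 33.0% and 48.8% of CD3-negative cells with an Ncr1 UMI, at 60.2 and 107 CPM. Trdv4 was found in 7.22% and 6.85% of those CD3-negative Ncr1-positive cells. The Trdc-only cells are called by that rule here and not by a cell type. Against Cd8b1-positive T cells, Tcrg-C4 was called higher in the gate in both libraries (0.856 against 82.6 CPM, 8.23 against 113 CPM). Tcrg-C2 was at 63.9 and 78.3 CPM in the gate and at 90.7 and 98.3 CPM in Cd8b1-positive T cells. Trgv2 was at 35.95 and 60.9 CPM in the gate and at 62.5 and 56.7 CPM in Cd8b1-positive T cells. Neither of these was called between the gate and the Cd8b1-positive T cells in either library. Against conventional CD4 T cells both were called higher in the gate in both libraries, with Tcrg-C2 at 0 and 1.18 CPM and Trgv2 at 0 and 0.589 CPM in the CD4 cells, and so were they against CD3-gated cells with neither gate gene (Tcrg-C2 at 5.90 and 19.04 CPM). Some of the gamma constant genes are near copies of each other, and how reads were assigned among those is not known here.

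Genes of the alpha-beta receptor did not separate the gate cleanly. Among the 121 control cells 109 held a UMI of Trac, Trbc1, Trbc2 or Cd8a, as did 74 of the 75 knockout cells and 92.8% and 86.3% of CD3-negative Ncr1-positive cells. Trac, the alpha-chain constant region, was found in 17.4% and 21.3% of gated cells against 90.5% and 89.2% of Cd8b1-positive T cells (taken without Cd4, Foxp3, Trdc and Cd163l1). Trbc2, a beta-chain constant region, was found in 80.2% and 77.3% of gated cells. Requiring none of the 4 RNAs would leave 12 control cells and 1 knockout cell.

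RNA of NK marker genes moved with these classes. A UMI of Ncr1, Klrb1c, Klra8 or Eomes was found in 18 of 121 gated control cells (14.9%) and 38 of 75 gated knockout cells (50.7%). For background, such a UMI was found in 7.35% and 7.67% of Epcam-positive cells without CD3, whose cells are deeper (36610 and 39426 UMIs in the median). It was found in 18.0% and 30.9% of Cd8b1-positive T cells (9359 and 8736 UMIs) and in 11.2% and 22.5% of CD3-gated cells with neither gate gene (5257 and 6021 UMIs), so the share was higher in the knockout library in those classes too. Among Il17a-positive cells the counts were 4 of 69 (5.80%) and 0 of 5, the first below the share in Epcam-positive cells, and among Il17a-negative cells 14 of 52 and 38 of 70. Within the cells with Trdc only, the shares were 55.0% (11 of 20) and 56.5% (35 of 62). The longer NK list, of 8 genes, summed to 204 CPM over the control gate and 1724 CPM over the knockout gate, with Klra8 and Klra4 at 0 UMIs in both. It was at 9.26 CPM in the Il17a-positive control cells, where Ncr1, Klra8, Klra4, Klra7, Klri2, Eomes and Gzma were at 0. The part of NK cells in the results that follow was not tested.

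**Figure D3:**
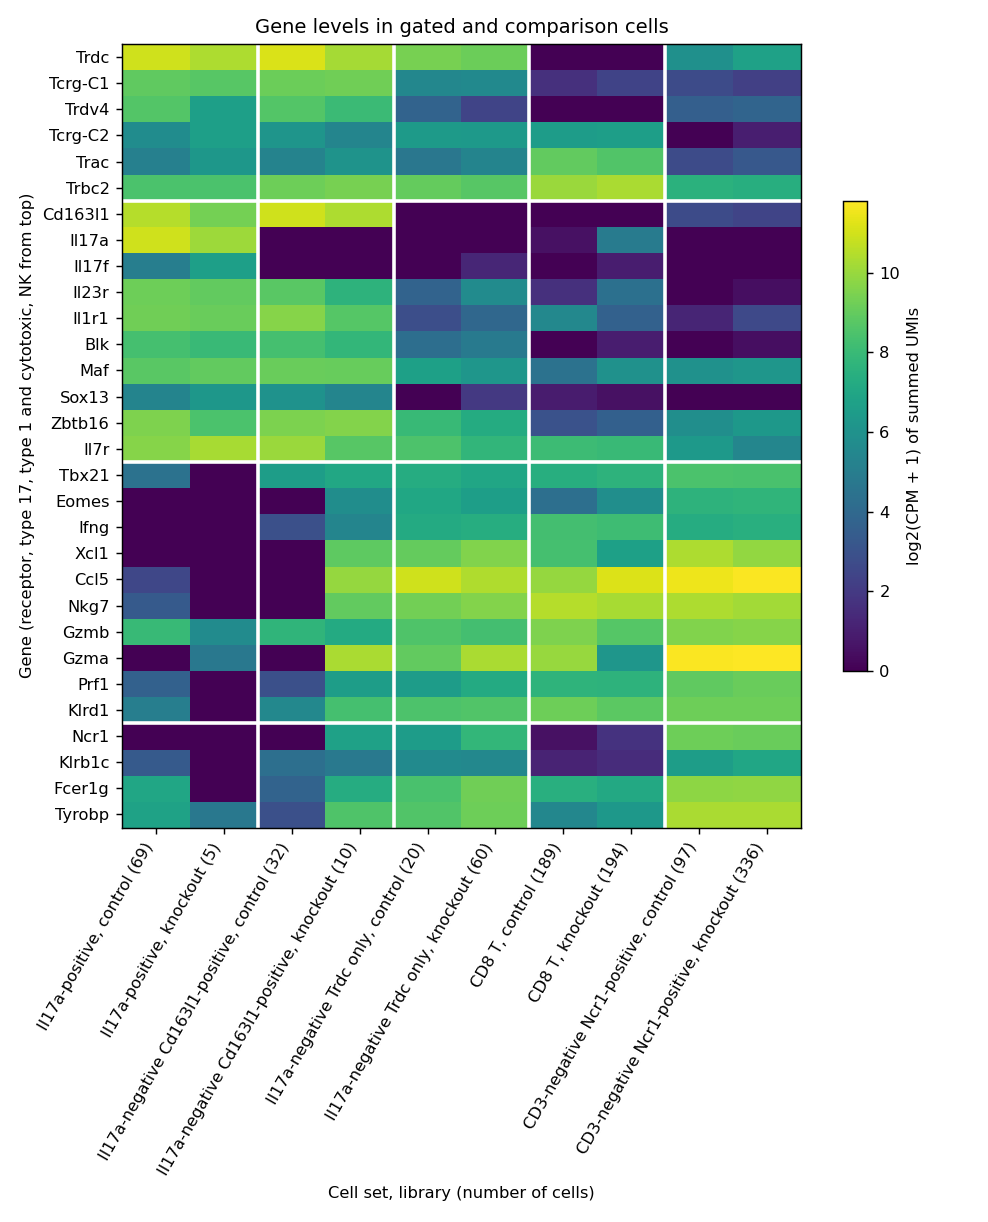
Levels of receptor, type 17, type 1 and cytotoxic, and NK genes (y axis) as log2(CPM + 1) of summed UMIs, in Il17a-positive cells, Il17a-negative cells with Cd163l1, Il17a-negative cells with Trdc only, Cd8b1-positive T cells and CD3-negative Ncr1-positive cells of each library (x axis, with cell numbers). In Tcrg-C1 the Il17a-negative cells with Cd163l1 resemble the Il17a-positive cells in both libraries. In Il23r they do so in the control library and lie lower in the knockout library. The cells with Trdc only carry Nkg7, Ccl5 and Ncr1.

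Across all gated cells, the knockout library was compared with the control library gene by gene. A gene was tested when it had at least 20 UMIs over both libraries, and was called when it differed at least 2-fold with an interval that left out equality. Of 7508 genes, 492 (6.55%) were higher and 461 (6.14%) lower in the knockout library, and the median log2 ratio over all of them was 0.05. Of 32 genes of the type 17 list, 28 were measured, 22 were lower and 2 higher, with a median log2 ratio of -1.85. That list holds Cd163l1, which the rule used, and Il17a, by which the cells were split. Cd163l1 and Il17a are among the 22 lower genes, so counts of this list, here and below, are in part a description. Of 29 genes of the cytotoxic list, 28 were measured, 22 were higher and none lower, with a median of 1.62. Both lists went far past the background share in 1 direction, in libraries whose gates held different numbers of Il17a-positive and NK-marked cells.

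The receptors and regulators of the type 17 list were lower together. Il23r, a subunit of the IL-23 receptor, was at 434 CPM in the control gate (interval 388 to 484, UMIs in 69 cells) and 87.0 CPM in the knockout gate (interval 67.8 to 109.9, 16 cells), a log2 ratio of -2.32 (interval -2.71 to -1.94). Il1r1, the signalling receptor for IL-1, was at 517 and 78.3 CPM, a log2 ratio of -2.72 (interval -3.13 to -2.33). Through these receptors IL-23 and IL-1 are known to sustain IL-17 production. Among the regulators, Rora, a nuclear receptor, went from 1482 to 401.5 CPM (log2 ratio -1.88) and Maf, a transcription factor of IL-17-producing gamma-delta cells, from 392 to 138 CPM (-1.50). Zbtb16, which encodes PLZF and marks innate-like T cells, went from 623 to 224 CPM (-1.48) and Blk, a Src-family kinase of the same branch, from 257 to 57.2 CPM (-2.17). Cxcr6, a homing receptor, went from 538 to 129 CPM (-2.06), and Ltb4r1, the leukotriene B4 receptor, from 110.5 to 13.7 CPM (-3.01).

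A few type 17 genes were not called lower. The levels of Batf were 59.9 and 67.1 CPM and of Ahr 65.3 and 119 CPM. Il18r1, an IL-18 receptor subunit, was at 740.4 and 382 CPM, lower in the knockout gate but by less than 2-fold. None of the 3 was called. Those called higher were 5830411N06Rik, a scavenger receptor gene related to Cd163l1, from 3.99 CPM (2 cells) to 78.3 CPM (10 cells), and Sox4, from 17.3 to 49.7 CPM, for which 1 cell held 47.2% of the UMIs. Il17f, the relative of Il17a, had 14 UMIs in 4 control cells, 11 of them in 1 cell, and 5 UMIs in 3 knockout cells. Ccr6, a chemokine receptor of many IL-17-producing T cells, was found in 2 control and 4 knockout cells only.

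Among secreted factors, Tnf (tumour necrosis factor) was at 482 CPM in the control gate and 90.7 CPM in the knockout gate, a log2 ratio of -2.41 (interval -2.79 to -2.04). Areg (amphiregulin, a growth factor) was at 384 and 26.1 CPM (-3.88), and 1 cell held 27.5% of that RNA. Chemokines and Ifng, which encodes interferon gamma, ran the other way. Ccl5 was at 429 and 1268 CPM (1.56), Ccl4 at 29.3 and 695 CPM (4.57), Xcl1 at 113 and 691 CPM (2.61) and Ifng at 33.3 and 142 CPM (2.09), and for Ccl4, Xcl1 and Ifng 1 cell held 29.1%, 27.1% and 33.8% of the UMIs. No Ifng UMI was found in an Il17a-positive cell of either library. Of 24 effector cytokine genes 12 were measured, with 5 higher and 4 lower, where 6.55% and 6.14% of all genes were.

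In the cytotoxic list, Nkg7, a granule membrane protein, was found in 21 control cells at 142 CPM (interval 117 to 172) and in 56 knockout cells at 724 CPM (interval 666 to 785), a log2 ratio of 2.34 (interval 2.04 to 2.66). Ncr1, the NK receptor NKp46, was at 19.97 and 203 CPM (3.34, interval 2.58 to 4.21). Klrd1 (CD94) was at 107 and 359 CPM (1.75), Prf1 (perforin) at 28.0 and 138 CPM (2.30), and Gzma (granzyme A) at 109 and 1208 CPM (3.47), with 30.3% of Gzma UMIs in 1 knockout cell. Gzmb (granzyme B) was at 268 and 283 CPM, Klrk1 (NKG2D) at 296 and 356 CPM and Tbx21 (T-bet) at 66.6 and 122 CPM, and none of these 3 was called. With the cells that held an NK marker left out, the log2 ratio of Gzma was -2.37, of Tyrobp -0.81 and of Prf1 -0.01, while that of Nkg7 was 2.84 and that of Il23r -1.62. Tyrobp, an adaptor of NK receptors, was at 150.5 and 544 CPM over the whole gate. Gzma, Prf1 and Tyrobp were thus no longer higher without the NK-marked cells, whereas Nkg7 and Il23r kept their directions.

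By the rule for single genes, the interval farthest from equality among higher genes belonged to Ly6c2, a surface protein of memory and NK cells, at 35.95 CPM in the control gate and 426 CPM in the knockout gate, an 11.9-fold difference. Myb (13.8-fold) and Themis (11.0-fold), a transcription factor and a T-cell signalling protein, and the NK receptor genes Klra7 (9.54-fold) and Klre1 (7.22-fold) were also among the 10 highest. On the lower side stood Prickle2, from 559 to 33.6 CPM (16.7-fold), and Adam12, a membrane protease, from 262 to 12.4 CPM (21.1-fold). Il2ra, the IL-2 receptor alpha chain, went from 1394 to 136 CPM (10.3-fold), and Trdv4 and the sialyltransferase gene St3gal3 were 9.56-fold and 6.90-fold lower. Stac and Olfr60 had 27 UMIs each in the control gate and none in the knockout gate, at least 9.64-fold lower when set against a floor of 3 counts over the gate.

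Il17a-positive cells alone were compared next. This comparison rests on 5 knockout cells, so a gene not called there may still differ. Of 3718 genes, 137 (3.68%) were higher and 114 (3.07%) lower in the knockout library. Means over cells in place of summed UMIs, called at 2-fold without an interval or floor, gave 398 and 895. A minimum of 50 UMIs gave 73 higher. Of the type 17 list 27 genes were measured, with 3 higher and 2 lower and a median log2 ratio of 0.12. Il23r was at 588 CPM in the control library and 506 CPM in the knockout library (log2 ratio -0.22, interval -0.95 to 0.44). Il1r1 was at 602 and 557 CPM, Maf at 438 and 506 CPM, Rora at 1903 and 1923 CPM and Tcrg-C1 at 486 and 430.2 CPM, and none of these was called. Il2ra was lower there too, at 1934 and 709 CPM (-1.45, interval -2.05 to -0.91), as were Adam12 (352 and 126.5 CPM) and Prickle2 (713 and 177 CPM). Ly6a, a surface protein induced by interferon, had 131 UMIs in the control cells and none in the knockout cells, at least 4.00-fold lower against the floor. Ern1, the sensor IRE1 of the unfolded protein response, was at 1012 and 177 CPM, and Rgs2, a regulator of G-protein signalling, at 599.7 and 101 CPM. On the higher side were Fli1, a transcription factor (463 and 1847 CPM), and Nsd3, a histone methyltransferase (949 and 3012 CPM).

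In Il17a-negative cells, 52 of the control and 70 of the knockout library, 376 of 6439 genes (5.84%) were higher and 313 (4.86%) lower. Of 24 measured type 17 genes 18 were lower and 2 higher (median log2 ratio -1.52), and of 28 measured cytotoxic genes 11 were higher and none lower (median 0.76). Il23r was at 226 CPM (19 cells) and 65.4 CPM (11 cells), and Il1r1 at 401 CPM (27 cells) and 53.6 CPM (9 cells). Nkg7 was at 323 and 761 CPM (log2 ratio 1.24, interval 0.93 to 1.55), while Ccl5 (1003 and 1334 CPM) and Klrd1 (207 and 378 CPM) were not called. Of these cells 32 in the control library and 10 in the knockout library held Cd163l1. When cells with an NK marker were left out of both libraries (38 and 32 cells remained), 19 of 24 measured type 17 genes were lower and 2 higher, and of 17 measured cytotoxic genes 5 were higher and 2 lower, where 6.7% of 4027 genes were higher and 7.65% lower.

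Among Cd163l1-positive cells, 101 in the control and 13 in the knockout library, 156 of 4728 genes (3.3%) were higher and 219 (4.63%) lower. Of 26 measured type 17 genes 4 were lower and none higher, with a median log2 ratio of -0.53 where that of all genes was -0.14. Il23r was at 550.1 CPM in the control library and 326 CPM in the knockout library (-0.76, interval -1.34 to -0.22), and Il1r1 at 657 and 357 CPM. Maf (470.3 and 547 CPM), Zbtb16 (727 and 673 CPM), Icos (823 and 715 CPM) and Blk (323 and 210.2 CPM) were not called either. Those that were lower included Il2ra, at 1752 and 568 CPM (-1.63, interval -2.05 to -1.23), Tnf, at 587 and 210.2 CPM (-1.48, interval -2.21 to -0.83), and Igf1r, the insulin-like growth factor receptor, at 1015 and 347 CPM (-1.55, interval -2.10 to -1.04). Itgae, the integrin CD103 of tissue-resident T cells, was at 187 and 31.5 CPM (-2.57), Adam12 at 333 and 63.1 CPM (-2.40) and Hilpda, a lipid-droplet protein induced by low oxygen, at 575.5 and 63.1 CPM (9.12-fold lower).

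Higher genes within the Cd163l1-positive cells included Ugcg, glucosylceramide synthase, at 33.96 and 315 CPM (9.29-fold), Klf4, a transcription factor, at 149 and 757 CPM (5.07-fold), and Abcb1b, a drug efflux pump, at 39.0 and 315 CPM (8.08-fold). Of 17 measured cytotoxic genes 10 were higher, where 3.3% of all genes were, but the knockout values rest on very few cells. Gzma (1009 CPM) and Xcl1 (368 CPM) came from 3 of the 13 cells each, with 50% and 80% of the UMIs in 1 cell, Ccl5 (767 CPM) came from 2 cells, and an NK marker was found in 3 of the 13. Tcrg-C1, Trdv4 and Tcrg-V6 were measured in this class and none was called.

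Among cells with Trdc only, 20 in the control and 62 in the knockout library, 248 of 5819 genes (4.26%) were higher and 192 (3.3%) lower. Of 28 measured cytotoxic genes 4 were higher and none lower, with a median log2 ratio of 0.07 against 0.05 for all genes. Nkg7 was at 636 and 767 CPM, Klrd1 at 364 and 374 CPM, Ifng at 148 and 156.5 CPM and Eomes, a transcription factor of cytotoxic and NK cells, at 130 and 95.9 CPM, and none of the 4 was called. The called ones included Ncr1, at 92.6 and 218.5 CPM (1.24, interval 0.47 to 2.11), and Gzma, at 506 and 1235 CPM (1.29, interval 0.96 to 1.63) with 33.3% of UMIs in 1 cell. Ly6c2 was at 167 and 469 CPM, 2.82-fold higher. Of 21 measured type 17 genes 7 were higher and none lower in this class, each from a low level. Il23r, for instance, was at 12.4 CPM (1 cell) and 55.0 CPM (9 cells), a log2 ratio of 2.15 with an interval of 0.20 to 5.25, and Igf1r at 80.3 and 241 CPM (1.59, interval 0.77 to 2.52). On the lower side were Klri1, an NK receptor (241 and 49.3 CPM), and Epas1, a hypoxia-inducible factor (154 and 32.4 CPM).

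**Figure D4:**
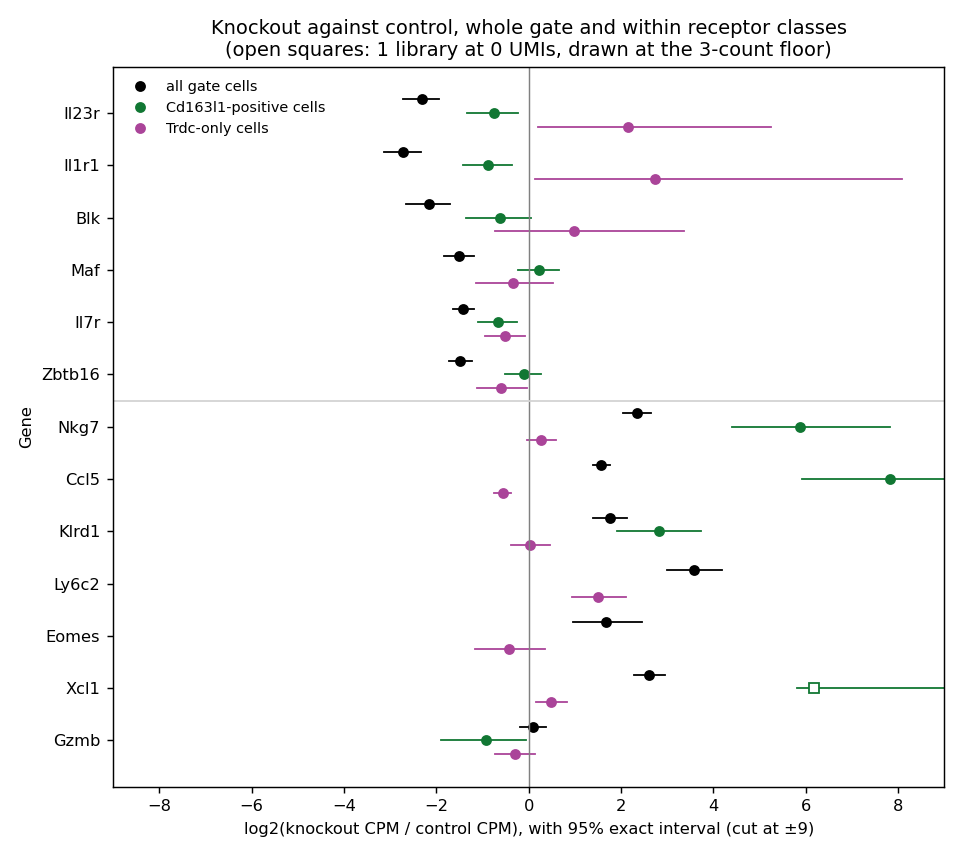
log2 of knockout over control CPM (x axis) with 95% exact intervals for type 17 and cytotoxic genes (y axis), over the whole gate and within Cd163l1-positive cells and cells with Trdc only; open squares mark a library at 0 UMIs, drawn at the floor of 3 counts. Il23r is at -2.32 over the whole gate and -0.76 in Cd163l1-positive cells, and Nkg7 is at 2.34 over the whole gate and 0.27 in cells with Trdc only.

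The 2 classes of the gate were set against each other within each library. Of 4711 genes, 87 (1.85%) were higher and 151 (3.21%) lower in cells with Trdc only than in Cd163l1-positive cells in both libraries, with the call made in each library apart. Lower in the Trdc-only cells were Il1r1 (657 against 6.18 CPM in the control library, 357 against 40.9 CPM in the knockout library), Il2ra (1752 against 92.6, 568 against 77.5 CPM), St3gal3 (822 against 74.1, 505 against 40.9 CPM) and Tcrg-C1. The early-response gene Egr1 was lower too, at 1273 against 235 CPM in the control library and 1735 against 88.8 CPM in the knockout library. Higher were the protein kinase C genes Prkca (109 against 969.5 CPM, 73.6 against 421.5 CPM) and Prkch (20.4 against 1402 CPM, 315 against 1099.7 CPM), and Ly6c2 (0 against 167 CPM, 105 against 469 CPM). These genes were chosen for a call in each library, so that both libraries show them follows from the choice.

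Il17a-positive and Il17a-negative cells were compared in the same way. In both libraries 50 of 4711 genes (1.06%) were higher and 60 (1.27%) lower in the positive cells. Without the cells that held an NK marker the counts were 19 and 25. Means over cells, called at 2-fold without an interval or floor, gave 77 and 214. In the control library alone, with 69 against 52 cells, 309 of 5127 (6.03%) were higher and 299 (5.83%) lower. Il2ra was at 664 CPM in negative and 1934 CPM in positive control cells, and at 106 and 709 CPM in the knockout library. Il23r was at 226 and 588 CPM (control) and 65.4 and 506 CPM (knockout), Rora at 912 and 1903 CPM and 323 and 1923 CPM, and Icos, a costimulatory receptor, at 398 and 882 CPM and 191 and 633 CPM. The positive cells of both libraries held more RNA of IL-23 and IL-2 receptor chains. The genes named here were chosen for a call in each library, so that both libraries show them follows from the choice. The 2 sets also differed in class. Cd163l1 was found in 61.5% of negative and 100% of positive control cells, and in 14.3% and 60% in the knockout library. In cells with Trdc only, Il23r was at 12.4 and 55.0 CPM. The part of class in these differences was not tested. Ccl5 was at 1003 CPM in negative and 4.63 CPM in positive control cells, and at 1334 CPM and 0 in the knockout library. Nkg7 was at 323 and 9.26 CPM and at 761 CPM and 0, Ly6c2 at 84.6 CPM and 0 and at 448 CPM and 0. Of 22 measured cytotoxic genes 16 were lower and none higher in positive cells of the control library.

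Single genes named by the rule in the control library included Hilpda, Hk2, Cxcl2 and Homer1. Hilpda was at 176 CPM in negative and 667 CPM in positive cells, and Hk2, a hexokinase, at 37.6 and 266 CPM. Of 22 measured genes of the metabolism list, which holds Hk2, 4 were higher and 2 lower in the control library, where 6.03% and 5.83% of all genes were. The median log2 ratio of the list was 0.07. Cxcl2, a neutrophil chemokine, was at 62.7 and 435 CPM there, and 1 cell held 20.7% of the Cxcl2 and 24.4% of the Hk2 UMIs. In the knockout library Cxcl2 was at 234 CPM in negative and 177 CPM in positive cells, with UMIs in 4 negative cells and 1 positive cell, and it was not called. Homer1, a scaffold protein gene, was at 157 and 563 CPM in the control library and 88.9 and 101 CPM in the knockout library. Macrophage genes summed to 90.9 CPM in negative and 1913 CPM in positive control cells, and dendritic-cell genes to 94.02 and 1318 CPM, with 94.7% and 89.98% of the UMIs of the positive cells in 3 cells. With the 5 control cells rich in such RNA left out, Cxcl2 was at 64.4 and 411 CPM, Hilpda at 180.4 and 755 CPM, Hk2 at 38.7 and 311 CPM and Homer1 at 158 and 652 CPM, and the 4 genes were still called. The 4 genes were chosen by the rule in the control library, and the 5 knockout cells give little precision for the difference between libraries, which was not tested.

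Against Cd8b1-positive T cells (189 control and 194 knockout cells), the gate was higher in 181 of 8747 genes (2.07%) and lower in 195 (2.23%) in both libraries. Of 23 measured type 17 genes 15 were higher in the gate and none lower. Cd163l1 is among the 15, and its call was fixed by the choice, since these T cells were taken without Trdc and Cd163l1. Clnk, an adaptor of immune receptors, was at 0 and 233 CPM in CD8 and gated cells of the control library and at 1.83 and 142 CPM in the knockout library. Zbtb16 was at 6.85 and 623 CPM and at 11.4 and 224 CPM. Themis was lower in the gate, at 624 against 7.99 CPM and 862 against 88.3 CPM, and so was the checkpoint receptor gene Havcr2, at 142 against 3.99 CPM and 93.3 against 2.49 CPM. Cd8a, whose partner Cd8b1 the rule bars, was found in 1 gated control cell and in no gated knockout cell.

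RNA of other cell types was concentrated in few gated cells. In 5 of 121 control and 7 of 75 knockout cells there were at least 10 UMIs of macrophage, dendritic-cell or tumour-cell markers, 4 of them Il17a-positive control cells. Macrophage genes summed to 1139 CPM over the control gate and 1353 CPM over the knockout gate, and 1 knockout cell held 93.4% of the latter. Without those cells the sums were 113 and 36.7 CPM for macrophage, 128 and 79.8 CPM for dendritic and 203 and 110.1 CPM for tumour markers. With the same cells left out, 395 genes were higher and 489 lower over the whole gate.

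RNA of genes induced by tissue digestion moved with the same classes. The list of 19 such genes, among them Fos, Egr1 and Hspa1a, summed to 20364 CPM over the control gate and 11412 CPM over the knockout gate. Of its genes 6 were lower and none higher, where 6.14% and 6.55% of all genes were. In Cd163l1-positive cells the sums were 23224 and 22696 CPM, and in cells with Trdc only 9961 and 9899 CPM. Of the 19 genes, 4 were lower and none higher in Cd163l1-positive cells, where 4.63% of all genes were lower. In cells with Trdc only 3 were higher and 1 lower, where 4.26% and 3.3% of all genes were. The sums were more than 2-fold apart between the classes. Its part in the other differences between classes was not tested.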

How the data were processed

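Single-cell RNA-seq counts (droplets, 10x Genomics) came from 1 control and 1 knockout library in 1 matrix. The authors deposited UMI counts per gene and barcode, as whole numbers, not normalized. Per the submitters' processing notes they used Cell Ranger 2.1.1 and mm10, while the matrix header, per the file headers, names version 6.0.1. Suffix 1 of a barcode was taken as the library numbered 1 in the labels, control, and suffix 2 as the knockout. That match was made by the number alone, and the lower Fermt2 level in Epcam-positive cells of suffix 2 goes with it. Members and gene lists were chosen with earlier results of these data known.

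UMIs were summed per library and cell set. Genes with 20 or more UMIs were compared by log2 ratios with exact 95% intervals, called at 2-fold, and a library at 0 was set to a floor of 3 counts. With 1 library per group no test was run. Named genes were members of the lists with the largest ratios or defining the state, and in each comparison across all genes the 10 on each side with the interval farthest from equality, leaving out genes with over 25% of UMIs in 1 cell, the gate genes and immunoglobulin, haemoglobin, mitochondrial, ribosomal protein and Xist genes. Genes of a few cells, and those named to show a contrast between classes (Prkch, for example), were chosen after their values were seen. Some genes of the lists are not reported here. Doublets were called with Scrublet in scanpy 1.11.5. Thinning drew 1000 UMIs per cell 20 times. Interval code was checked on simulated data. Figures were drawn with matplotlib 3.10.9, and anndata 0.12.19, pandas 2.3.3, scipy 1.17.1 and numpy 2.4.6 were used under Python 3.11.15. Alternatives covered the gate, filters, calls and cells left out.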

Additional observations from a re-analysis of the deposited data

How the results depend on the processing

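The share of gated cells among CD3-gated cells was lower in the knockout library under every alternative gate run. The gates below moved values outside their intervals. Without any Trac, Trbc1, Trbc2 or Cd8a UMI the gate held 12 control cells and 1 knockout cell, 2.12% and 0.110% of CD3-gated cells, with 0% Il17a-positive in the knockout library, 69 genes higher and 31 lower, Ccl5 at -0.57 (log2), and no comparison by Il17a possible. Without cells holding an NK marker (chosen after seeing the data) the knockout share was 4.05%, 19 genes were higher and 25 lower in Il17a-positive than in Il17a-negative cells in both libraries, and Gzma (-2.37), Tyrobp (-0.81) and Prf1 (-0.0098) turned. Among Il17a-negative cells, 223 genes were higher in the knockout library without cells holding 10 or more UMIs of other cell types' markers. That setting was also chosen after seeing the data. Thinned to 1000 UMIs, 40.0% of gated control cells were Il17a-positive.

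Counts of called genes depended on the threshold. Over the whole gate, requiring 50 UMIs gave 235 higher and 291 lower, a 1.5-fold threshold 759 and 767, and leaving out each gene's highest cell 323 higher. In Il17a-positive cells, means over cells gave 398 and 895, and 50 UMIs 73 higher. In Il17a-negative cells, means over cells gave 657 higher, 50 UMIs 173 and 160.0, a 1.5-fold threshold 540 lower and leaving out the highest cell 155 higher. For Il17a-positive against negative cells, means over cells gave 77 and 214, 50 UMIs 32 higher, a 1.5-fold threshold 129 and 96, and the control library alone (chosen after seeing the data) 309 and 299. With called doublets left out, 417 were higher and 553 lower over the whole gate. Of 469 values of 46 single genes under 11 settings, 394 stayed within the interval, 71 left it and 4 reversed. For shifts that the smaller number of cells or UMIs does not set, the cause was not tested. No paired analysis was possible because each group has 1 library. The 5 Il17a-positive knockout cells, with 39515 UMIs in all, limit every value that rests on them.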

Other observations

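Homing and activation genes of the gated cells also differed between the libraries. Of 18 measured homing and residency genes 6 were higher and 7 lower in the knockout gate, where 6.55% and 6.14% of all genes were. Itgae, the integrin CD103 of resident cells, was at 151 CPM in the control gate (59 cells) and 24.9 CPM in the knockout gate (12 cells), and Cd69, a retention and activation marker, at 1812 and 588 CPM. Itga4, an integrin chain, was at 74.6 and 328 CPM. Itgae and Cd69 were thus lower, and Itga4 higher, in the knockout gate. Within cells with Trdc only, Itga4 was at 309 and 359.5 CPM and Cd69 at 562 and 461 CPM, and neither was called.

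Of 20 measured activation and checkpoint genes 8 were lower and 1 higher in the knockout gate, where 6.14% and 6.55% of all genes were. Icos went from 676 to 213 CPM, Pdcd1, which encodes PD-1, from 292 to 87.0 CPM, and the T-cell receptor response gene Nr4a1 from 1239.8 to 462 CPM. In Cd163l1-positive cells Icos was at 823 and 715 CPM, Pdcd1 at 350 and 294 CPM and Nr4a1 at 1462 and 967 CPM, and none was called. Ctla4 had UMIs in 24 of 101 control and 0 of 13 knockout cells of that class, and 13 cells give little precision. Of 36 measured interferon-response genes 1 was higher and 3 lower over the whole gate, near the shares over all genes. Their median log2 ratio was -0.12. Ly6a was among the lower ones, at 246 and 64.6 CPM, while Isg15 (117 and 83.3 CPM) and Gbp2 (121 and 117 CPM) were not called. Of 22 measured cell-cycle genes 3 were higher and none lower; Mki67, a proliferation marker, was at 109 CPM in 12 control cells and 106 CPM in 8 knockout cells. Fermt3, the kindlin of blood cells, was at 94.5 and 117 CPM and was not called.

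Cells with Trdc only were set beside CD3-negative cells with an Ncr1 UMI, of which the control library held 97 and the knockout library 336. Prf1 was at 487 CPM in the Ncr1-positive cells and 92.6 CPM in the Trdc-only cells of the control library, and at 549.9 and 147 CPM in the knockout library. Gzma was at 3423 and 506 CPM and at 3601 and 1235 CPM. Il7r, the IL-7 receptor, ran the other way, at 80.8 and 364 CPM and at 42.1 and 254 CPM, and so did Ikzf2, a transcription factor (Helios), at 370 and 1396 CPM and at 319 and 1138 CPM. The Trdc-only cells were chosen with CD3 RNA and without regard to Ncr1, so part of these differences follows from how the 2 sets were chosen.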
